A study of Mus musculus with 40 samples.

Results

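The guanylate-binding proteins Gbp2, Gbp3, Gbp4, Gbp5, Gbp6, Gbp7, Gbp8, Gbp9, Gbp10 and Gbp11 were followed by RNA sequencing in subcutaneous CT26 tumors of BALB/c mice. These 10 genes were taken by symbol from the 54087 gene entries of the count table, and all 10 were among the 14760 genes kept by a filter on low counts. CT26 is a mouse colon carcinoma line that is syngeneic with BALB/c, so the tumors grew in immunocompetent hosts. Every mouse received 1000000 tumor cells, was treated by intraperitoneal injection on days 6, 9 and 12, and had its tumor collected on day 13. The 40 tumors fell into 8 groups of 5 mice, numbered here within a group only to name them. One group received the mIgG2a isotype control (motavizumab). The groups given single mAbs received anti-GARP:TGFb WT (clone 58A2, mIgG2a), anti-GARP:TGFb FcD (the same clone with an Fc-dead constant part), anti-TGFb (clone 1D11) or anti-PD1 FcS (an Fc-silent antibody). The remaining 3 groups received anti-PD1 FcS together with anti-GARP:TGFb WT, anti-GARP:TGFb FcD or anti-TGFb, and are called the WT, FcD and anti-TGFb combinations. GARP presents latent TGF-β1 on regulatory T cells, and the anti-GARP:TGFb antibody blocks the release of active TGF-β1 from that complex.

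Guanylate-binding proteins are large GTPases of the dynamin superfamily whose genes are switched on by interferons, above all by IFNγ with IRF1 among the transcription factors it induces. They assemble on the membranes of vacuoles that hold microbes and on bacteria in the cytosol, where they act with the immunity-related GTPases (IRGs) and help to trigger inflammasomes. In tumors their transcripts come from malignant, stromal and immune cells alike and are widely read as a mark of exposure to interferon. In RNA from whole tumor fragments, fewer cells of a type and less RNA per cell cannot be told apart.

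The members lie in clusters on 2 chromosomes (GRCm38, GENCODE vM21 annotation). Gbp5 (chr3:142493978-142522344), Gbp7 (chr3:142530342-142550149), Gbp3 (chr3:142560026-142573209) and Gbp2 (chr3:142620602-142638008) are read from the plus strand of chromosome 3, where Gbp2b lies between Gbp3 and Gbp2. Gbp8 (chr5:105014150-105139540), Gbp9 (chr5:105077630-105139539), Gbp4 (chr5:105115767-105139586), Gbp10 (chr5:105215699-105239533), Gbp6 (chr5:105270702-105293698) and Gbp11 (chr5:105323042-105346472) are read from the minus strand of chromosome 5. Gbp11 is annotated as a polymorphic pseudogene, and the other 9 members as protein coding. The counts of Gbp6 and Gbp10 are uncertain as to origin, since 64.5% and 73.5% of their transcribed stretches of 100 bases also occur in transcripts of other genes, chiefly of the overlapping locus Gm43302. That share was 10% for Gbp7 and at most 5.13% for each of the other 7 members.

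Interferon-regulated promoters often carry the interferon-stimulated response element, bound by IRF factors. A simple form of it (GAAA, any 2 bases and GAAA again, here the GAAA repeat, on either strand) was searched in the 250 bases before each RefSeq gene start. Promoter sequences were at hand for 4 of the 10 members, the chromosome 3 genes, and each of these 4 held the GAAA repeat, which is present in 2.98% of the 32851 windows of the same length. The matched stretches are shown because every member with a sequence at hand carries this motif. They are given 5′ to 3′ on the plus strand (GRCm38.p6, RefSeq starts), with the matched bases in capitals. On this strand the repeat reads as its reverse complement, TTTC, any 2 bases and TTTC.
Gbp2 (chr3:142620594-142620623): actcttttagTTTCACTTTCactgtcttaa
Gbp3 (chr3:142559992-142560021): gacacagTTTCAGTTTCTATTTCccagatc
Gbp5 (chr3:142496759-142496788): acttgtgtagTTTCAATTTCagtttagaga
Gbp7 (chr3:142530273-142530302): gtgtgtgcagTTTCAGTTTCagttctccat
The Gbp3 stretch holds 2 overlapping matches. The Gbp3 and Gbp7 stretches lie upstream of the gene in GENCODE, that of Gbp2 covers annotated Gbp2 exon sequence, and that of Gbp5, whose RefSeq start is downstream of the GENCODE one, lies in a Gbp5 intron. A second start of Gbp3 had no match in its window.

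Of the IRG genes with a window, 6 of 7 held the GAAA repeat, as did 7 of 11 genes chosen as stimulated by type I interferon and 1 of 8 genes of IFNγ signaling. A match in letters is a description of the window and was not tested as a binding site.

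Total counts ran from 11931730 to 20680548 per tumor (median 14030511), and no pair of the 40 libraries agreed within sampling noise. Libraries numbered 41 to 60 all carried the Y-linked transcript Ddx3y, and those numbered 61 to 80 all carried Xist, with 2 or 3 mice of each group in each set. Results of the pooled comparisons and of each combination against isotype control are therefore also given within each set of 20. The labels do not say whether mice shared cages or days of processing.

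In the isotype control tumors, Gbp2 was the most abundant member per length of transcript. On the scale of CPM per kilobase of exon (CPM/kb, where CPM are counts per 1000000 after normalization for composition), Gbp2 stood at 138 ± 37.5, Gbp3 at 58.1 ± 14.4 and Gbp4 at 43.7 ± 13.1 (mean ± SD, n = 5 mice, as for all group means here). Gbp7 followed at 26.0 ± 7.86 and Gbp9 at 15.4 ± 3.67. Gbp8 (7.69 ± 1.69) and Gbp5 (7.54 ± 1.90) were level with each other. Gbp10 (3.29 ± 1.11), Gbp11 (1.95 ± 0.229) and Gbp6 (1.94 ± 0.521) had the lowest values. The place of Gbp10 and Gbp6 is uncertain, since most of their transcribed stretches of 100 bases also occur in other genes. Their CPM/kb was still taken over the full exon length. Among neighbours in this order, the ranges of the 5 mice overlapped for Gbp3 and Gbp4, Gbp4 and Gbp7, Gbp7 and Gbp9, Gbp8 and Gbp5, and Gbp11 and Gbp6, and were apart for the others. Counts of Gbp2 lay between 780 and 10405 over the 40 tumors, those of Gbp10 between 17 and 489, and those of Gbp11 between 21 and 211, so the low members carry more counting error.

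Gbp2, which is recruited to the vacuole of Toxoplasma, had 438, 425, 374, 257 and 236 CPM in the 5 isotype control tumors. It had 397, 356, 370, 296 and 231 CPM with anti-GARP:TGFb WT, 543, 230, 352, 360 and 79.2 CPM with anti-GARP:TGFb FcD, and 395, 543, 222, 335 and 335 CPM with anti-TGFb. With anti-PD1 FcS alone, the values were 57.6, 675, 234, 607 and 478 CPM. The tumors given single mAbs thus lay around the control values, and those given anti-PD1 FcS alone spread below and above them. In the WT combination, Gbp2 had 637, 490, 658, 573 and 449 CPM, all above the 5 control tumors. The FcD combination had 543, 513, 645, 434 and 628 CPM and the anti-TGFb combination 628, 626, 415, 441 and 688 CPM, and each overlapped the controls only at its lowest values. Ordered by group mean, the WT (561 ± 90.7), anti-TGFb (560 ± 123) and FcD (553 ± 86.5) combinations came first, followed by anti-PD1 FcS (410 ± 259), anti-TGFb (366 ± 117), isotype control (346 ± 94.3), anti-GARP:TGFb WT (330 ± 66.4) and anti-GARP:TGFb FcD (313 ± 172). Neighbours in this order differed by less than the spread between mice.

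Gbp5, which carries a prenylation signal and promotes activation of the NLRP3 inflammasome, showed the same arrangement at a lower level. Isotype control tumors had 61.8, 64.4, 47.3, 36.5 and 40.1 CPM, against 85.9, 73.8, 118, 82.0 and 99.5 CPM in the WT combination and 105, 71.3, 114, 95.9 and 101 CPM in the FcD combination. No tumor of either combination fell into the control range. The anti-TGFb combination had 110, 84.2, 45.3, 74.9 and 90.4 CPM, with 1 of 5 tumors inside the control range. Means with single mAbs were 48.9 ± 17.9 CPM (anti-GARP:TGFb WT), 45.6 ± 18.1 CPM (anti-GARP:TGFb FcD), 64.2 ± 34.1 CPM (anti-TGFb) and 61.7 ± 35.5 CPM (anti-PD1 FcS).

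Gbp4, known to restrain IRF7 in the response to viruses, had 437, 422, 311, 231 and 237 CPM in the controls. It had 694, 552, 729, 609 and 568 CPM in the WT combination, 660, 494, 774, 562 and 701 CPM in the FcD combination and 711, 642, 353, 420 and 598 CPM in the anti-TGFb combination. All 10 tumors given anti-GARP:TGFb of either format with anti-PD1 FcS lay above all controls, and 2 of the 5 anti-TGFb combination tumors did not.

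Gbp10 had 17.9, 16.8, 8.96, 11 and 9.01 CPM in the controls, 24.0, 21.5, 30.9, 26.1 and 26.7 CPM in the WT combination and 28.0, 14.6, 33.7, 25.7 and 28.4 CPM in the FcD combination. In the anti-TGFb combination it had 26.5, 16.8, 4.61, 15.1 and 16.2 CPM, with 3 tumors inside the control range, 1 above and 1 below it. Gbp11 had 5.75, 5.53, 4.72, 4.48 and 5.82 CPM in the controls, 9.12, 10.3, 7.59, 8.62 and 4.54 CPM in the WT combination, 7.78, 8.52, 12.7, 10.4 and 10.2 CPM in the FcD combination and 6.90, 13.7, 6.05, 8.40 and 11.2 CPM in the anti-TGFb combination. For Gbp11 it was the FcD and anti-TGFb combinations that lay wholly above the controls.

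**Figure D1:**
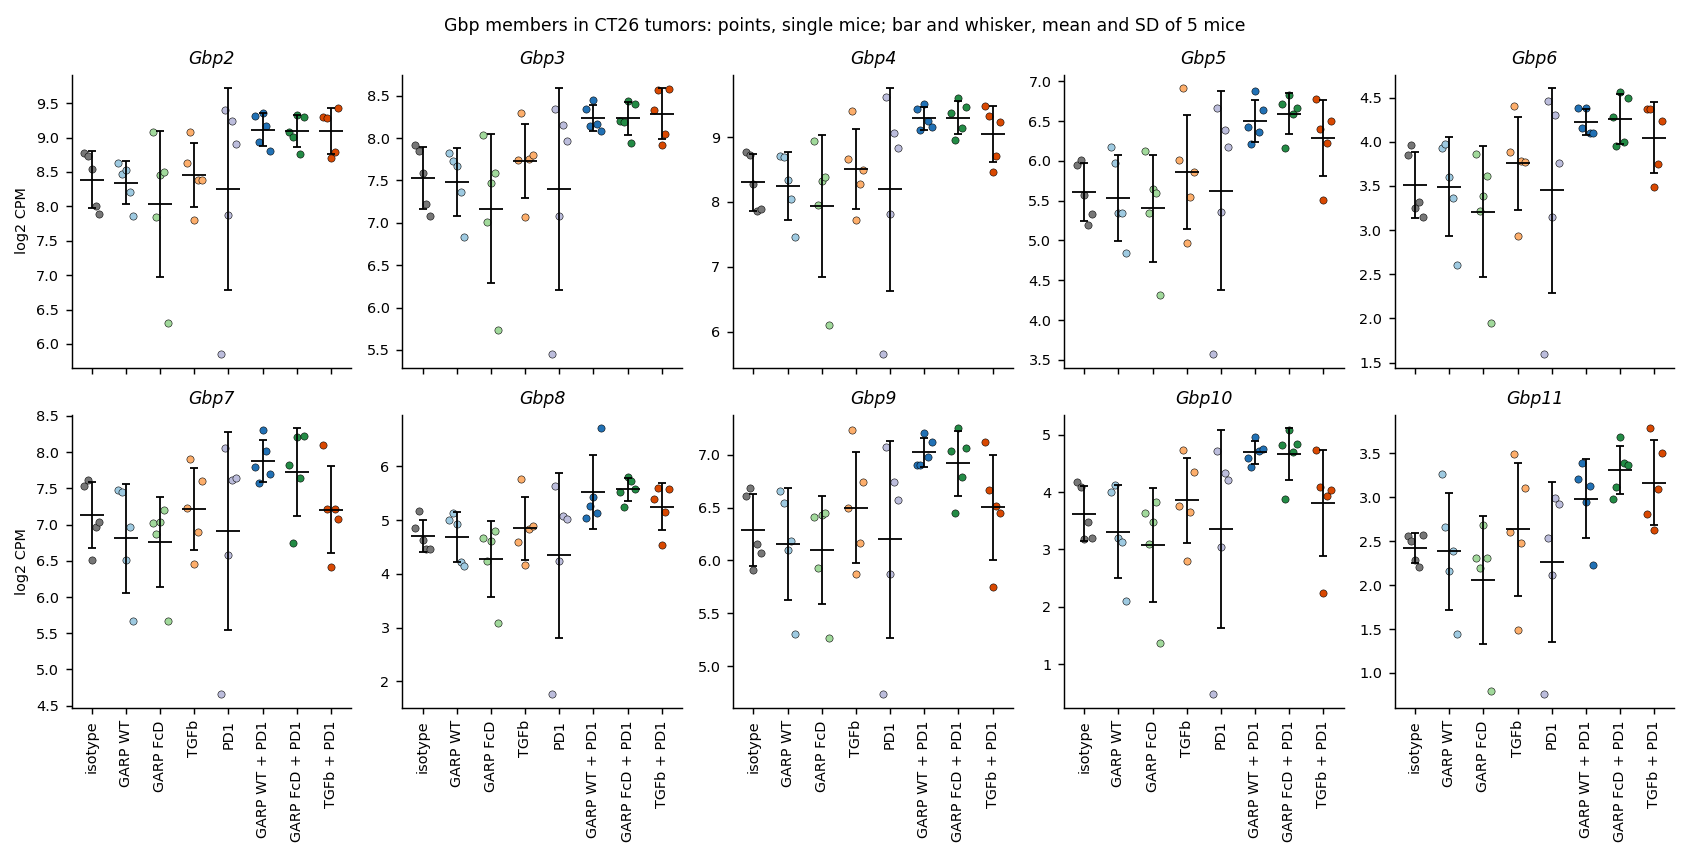
Level of each of the 10 members (log2 CPM, y axis) in single mice by treatment group (x axis, mAb names without the prefix), with a bar at the mean and whiskers of 1 SD over 5 mice. The 3 combinations sit at the right; for Gbp4 all 10 WT and FcD combination tumors lie above the 5 isotype control tumors, and 1 tumor given anti-PD1 FcS alone is lowest in every panel.

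The design asks whether blocking TGF-β1 and PD-1 together does more than either alone. The comparisons with each component and the interaction terms, given further below, address that question. The pooled comparison here does not, since all 15 combination tumors received anti-PD1 FcS, against 5 of the 20 given single mAbs. It cannot separate a gain from the partner antibody from an effect of anti-PD1 FcS. Set against the 20 tumors given single mAbs, the 15 tumors of the 3 combinations had higher estimates for all 10 members (46.8% of all genes), and 9 of the 10 had an adjusted p under 0.05 by the quasi-likelihood test of edgeR, with Benjamini-Hochberg adjustment over all 14760 genes. Of all genes tested, 7.50% passed as higher in this comparison and 3.15% as lower. The median log2 fold change of the members was 0.70, against -0.01 over all genes. Among the members on chromosome 3, Gbp2 rose 1.58-fold (log2 fold change 0.66, SE 0.20, adjusted p 0.0369), Gbp3 rose by 0.68 (SE 0.18, adjusted p 0.0195) and Gbp5 rose 1.65-fold (0.72, SE 0.19, adjusted p 0.0219). Gbp7, which takes part in assembling the phagocyte oxidase, did not pass (log2 fold change 0.58, SE 0.21, adjusted p 0.0712). On chromosome 5, all 6 members rose, with the largest estimates for Gbp10 (1.75-fold, log2 0.81, SE 0.25, adjusted p 0.0374) and Gbp8 (1.74-fold, log2 0.80, SE 0.21, adjusted p 0.0200). Gbp11 had the smallest adjusted p of the family (1.66-fold, log2 0.73, SE 0.19, adjusted p 0.0178). Gbp4 rose 1.72-fold (adjusted p 0.0261), Gbp6 by 0.58 on the log2 scale (adjusted p 0.0367) and Gbp9 1.42-fold (adjusted p 0.0413). With 1 mouse left out at a time, the lowest log2 estimate was 0.65 for Gbp8, 0.71 for Gbp4 and 0.72 for Gbp10. The place of Gbp8 among the largest estimates thus depended on 1 tumor.

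Within each set of 20 libraries, differences of mean log2 CPM were taken, with each group weighted equally, and no edgeR model was fitted. For this pooled comparison they were 0.65 to 1.09 within libraries 41 to 60 and 0.53 to 0.96 within libraries 61 to 80. Their sizes are not comparable with the edgeR estimates, which were 0.50 to 0.81 over both sets. All 10 members were higher in each set, and the share of all genes that were was not determined. The direction held in all 43 alternative fits of each member, but several adjusted p-values lay close to the threshold. With 1 mouse left out at a time, between 4 and 10 members passed. The count was 4 without mouse 5 of the WT combination (2.65% of genes called in that fit, against 10.7% with all mice). It was 5, with 5.11% to 8.15% of genes called, without any of mouse 3 given anti-PD1 FcS, mice 1, 3 or 4 given anti-TGFb, mice 4 or 5 given anti-GARP:TGFb WT, mice 1 or 3 of the FcD combination and mice 1, 2 or 5 of the anti-TGFb combination. With no filter on low counts 1 member passed (1.61% of genes), with only the 35 compared tumors in the model 5 passed (6.63%), and with DESeq2's Wald test 9 passed (10.9%).

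Against isotype control, the WT combination gave estimates from 0.61 (Gbp11) to 1.02 (Gbp10) on the log2 scale, or 1.53-fold to 2.03-fold. None of the members passed in edgeR after adjustment (adjusted p 0.183 to 0.303), as was true of all genes (0% called), and none passed with DESeq2 (0% of genes). At an unadjusted p under 0.05, 7 of 10 members were higher, as were 13.2% of all genes, and 4 of 10 without the 4 tumors farthest out on the first principal component (3.22% of genes). All 5 tumors of the WT combination lay above all 5 control tumors for 7 members (Gbp2, Gbp3, Gbp4, Gbp5, Gbp6, Gbp9 and Gbp10), a separation seen in 1.35% of genes. The Gbp8 estimate of 0.94 depended on mouse 5, with 105 CPM against 32.9 to 42.9 CPM in the other 4 mice, and was 0.49 without it.

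The FcD combination gave estimates of 0.62 (Gbp9) to 1.03 (Gbp10) against isotype control, with 8 of 10 members at an unadjusted p under 0.05 (10.7% of all genes), 4 without the same 4 tumors (3.51%), and 0 after adjustment in edgeR (adjusted p 0.241 to 0.404). Its 5 tumors lay above all controls for Gbp3, Gbp4, Gbp5, Gbp8 and Gbp11, against 1.96% of genes. With only these 2 groups in the model, 4 members passed (Gbp4, Gbp5, Gbp8 and Gbp11), as did 1.30% of genes. The anti-TGFb combination gave estimates of 0.12 (Gbp7) to 0.82 (Gbp11). Gbp3 and Gbp11 had an unadjusted p under 0.05 (8.49% of all genes; 7 members and 11.1% with only these 2 groups in the model, 6 members and 8.55% without the 2 tumors lowest in all members), and the same 2 members were wholly above the controls (1.73% of genes), while 0 passed after adjustment in edgeR (adjusted p 0.201 to 0.886; 0% of genes) or DESeq2 (1.30%). These comparisons share the same 5 control tumors. Pooled, the 3 combinations differed from isotype control by 0.49 to 0.88, with 8 of 10 members at an unadjusted p under 0.05 (10.4% of genes) and adjusted p of 0.234 to 0.447 in edgeR. As differences of mean log2 CPM, this pooled comparison gave 0.07 to 0.76 within libraries 41 to 60 and 0.71 to 1.12 within libraries 61 to 80. For the WT combination these differences were 0.11 to 0.77 and 0.42 to 1.52, and for the FcD combination 0.02 (Gbp7) to 0.73 and 0.87 to 1.48. For the anti-TGFb combination they were 0.08 to 0.77 and 0.06 to 0.88. All 10 members were higher than the controls in each set, with 2 or 3 mice of each group in a set. The share of all genes that were higher in each set was not determined, and the members are not independent of each other. The difference between the sets was not tested.

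With the single mAbs no member passed the test, and the estimates lay on both sides of 0. Estimates against isotype control were -0.24 to 0.08 for anti-GARP:TGFb WT, -0.40 to -0.13 for anti-GARP:TGFb FcD, 0.08 to 0.36 for anti-TGFb and 0.02 to 0.32 for anti-PD1 FcS. Some changed sign in other fits. For anti-GARP:TGFb FcD, 4 members did without its mouse 5 (Gbp2, Gbp3, Gbp4 and Gbp5). For anti-TGFb, 5 did without the 4 tumors farthest out on the first principal component (Gbp2, Gbp4, Gbp5, Gbp7 and Gbp8). For anti-GARP:TGFb WT, 6 did with the transcript-length index defined below as a covariate, and 2 with the library set as a covariate. The anti-PD1 FcS estimates were lowered by mouse 1, which had 57.6 CPM of Gbp2 and 50.3 CPM of Gbp4. Without it they were 0.25 (Gbp11) to 0.60 (Gbp4), with 0.52 for Gbp2 in place of 0.25 and 0 members at an unadjusted p under 0.05, and without it and mouse 5 given anti-GARP:TGFb FcD, Gbp2 and Gbp4 had an unadjusted p under 0.05 (0.872% of genes). In edgeR and in DESeq2 0 members passed after adjustment (0% of genes with each mAb in edgeR and at most 0.0032% in DESeq2). At an unadjusted p under 0.05, 0 of 10 changed in either direction (0.969%, 0.474%, 2.32% and 0.955% of genes, in the order of the mAbs above). The upper 95% bound lay below the estimate of the matching combination for all 10 members with anti-GARP:TGFb FcD alone (upper bounds 0.44 to 0.67) and for 7 of 10 with anti-GARP:TGFb WT alone (0.52 to 0.81), all but Gbp2, Gbp6 and Gbp11; the combination estimates have an error of their own. With anti-TGFb alone this held for 0 of 10 members (0.85 to 1.27). The share of all genes for which it held was not determined. Both sides rest on the same isotype control tumors, and the members moved together, so these counts are not of independent genes. For Gbp2 with anti-PD1 FcS alone, the 95% interval of the log2 fold change was -0.52 to 1.02, and for Gbp5 with anti-TGFb it was -0.37 to 1.09, so for these 2 mAbs the intervals include changes of the size estimated in the combinations.

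**Figure D2:**
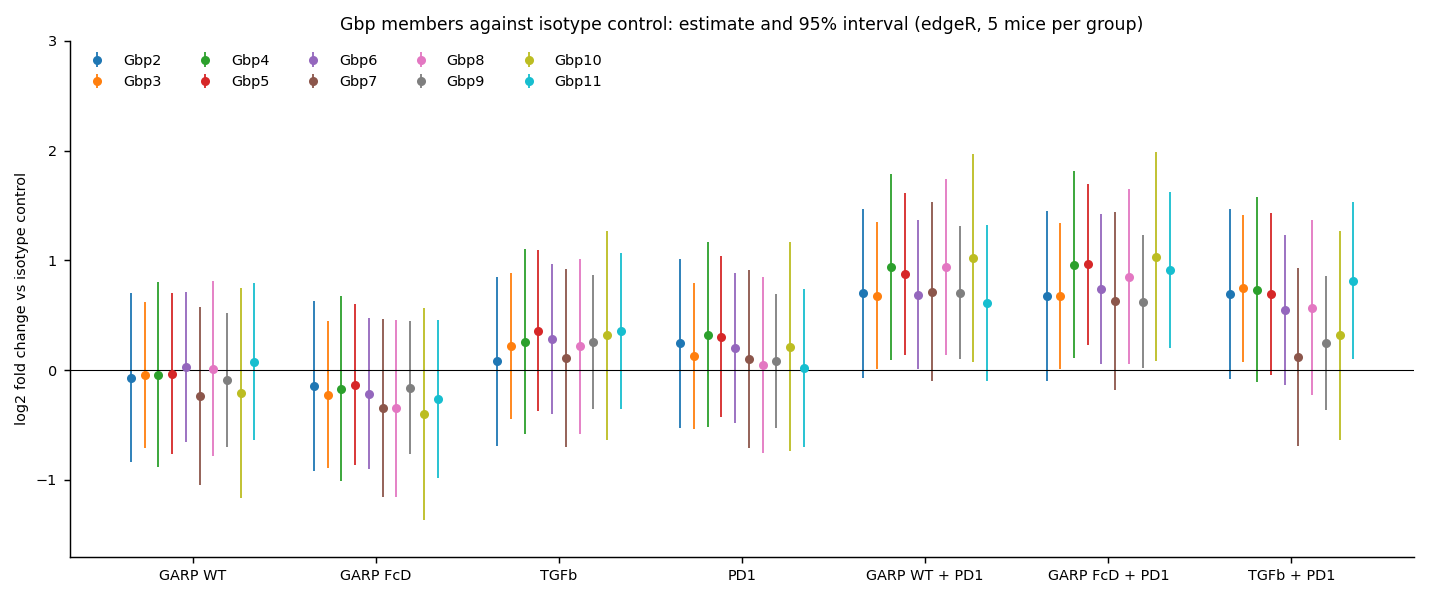
Log2 fold change against isotype control (y axis) of each member (colours) for the 7 treatments (x axis), with 95% intervals from edgeR and 5 mice per group. Estimates of the 4 single mAbs lie between -0.40 and 0.36 and those of the WT and FcD combinations between 0.61 and 1.03; in the anti-TGFb combination they run from 0.12 for Gbp7 to 0.82 for Gbp11.

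Each combination was next compared with its components. Against anti-PD1 FcS alone, estimates were 0.45 to 0.89 for the WT combination, 0.43 to 0.90 for the FcD combination and 0.02 to 0.80 for the anti-TGFb combination. None of the members passed in edgeR (0%, 0% and 0.00678% of genes called) or DESeq2 (0%, 0% and 0.881%). At an unadjusted p under 0.05, Gbp8 and Gbp9 were higher in the WT combination (17.2% of genes past it in either direction), Gbp8 and Gbp11 in the FcD combination (10.7%) and Gbp11 in the anti-TGFb combination (17.1%). The 5 tumors of a combination were wholly above the 5 given anti-PD1 FcS for 0 members (0.251%, 0.474% and 0.732% of genes). These 3 comparisons share the anti-PD1 FcS tumors, in which mouse 1 had the lowest level of the 40 tumors for all 10 members. Without that mouse the estimates shrank to 0.16 (Gbp2) to 0.59 for the WT combination, 0.14 (Gbp2) to 0.65 for the FcD combination and -0.26 (Gbp7) to 0.56 for the anti-TGFb combination, and 0 members had an unadjusted p under 0.05 in any of the 3 (9.61%, 7.63% and 19.3% of genes).

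Against the partner antibody alone, differences were larger for the anti-GARP:TGFb antibodies. Adding anti-PD1 FcS to anti-GARP:TGFb WT gave estimates of 0.53 (Gbp11) to 1.23 (Gbp10), with 7 members at an unadjusted p under 0.05 (16.6% of genes higher) and groups that did not overlap for 8 members, all but Gbp8 and Gbp11 (2.74% of genes). With an index of how long transcripts are represented in each library as a covariate (defined with the comparison of the combinations), 0 members had an unadjusted p under 0.05 in this comparison (5.19% of genes higher), with estimates of 0.37 to 0.74 and an adjusted p of at least 0.553 in edgeR. Adding it to anti-GARP:TGFb FcD gave 0.78 (Gbp9) to 1.43 (Gbp10), with all 10 members at an unadjusted p under 0.05 (13.0% of genes) and no overlap for Gbp4, Gbp5, Gbp6, Gbp8, Gbp10 and Gbp11 (2.65% of genes). Without mouse 5 given anti-GARP:TGFb FcD, the latter estimates were 0.57 to 1.18 and 7 members kept an unadjusted p under 0.05 (9.91% of genes). After adjustment, edgeR with all 8 groups and DESeq2 called 0 members (0% of genes in edgeR, and 2.42% for the WT and 1.04% for the FcD combination in DESeq2), with adjusted p of 0.101 to 0.287 and 0.128 to 0.217 in edgeR. With only the 2 compared groups in the edgeR model, 3 members (Gbp5, Gbp8 and Gbp11) passed for the FcD combination against anti-GARP:TGFb FcD (3.49% of genes) and 0 for the WT combination (0%). Adding anti-PD1 FcS to anti-TGFb gave -0.01 (Gbp9) to 0.61 (Gbp2), with 0 members at an unadjusted p under 0.05 (3.96% of genes higher).

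Whether the gain over isotype control exceeded the sum of the gains of the 2 single mAbs was tested as an interaction in the same edgeR model. Interaction terms on the log2 scale were 0.45 to 1.01 for anti-GARP:TGFb WT, 0.57 to 1.22 for anti-GARP:TGFb FcD and -0.22 to 0.44 for anti-TGFb. None passed after adjustment in edgeR or DESeq2 (0% of genes in edgeR for each and at most 0.00639% in DESeq2). At an unadjusted p under 0.05 there were 0 members for anti-GARP:TGFb WT (4.30% of genes higher), 2 for anti-GARP:TGFb FcD (2.45%) and 0 for anti-TGFb (0.752%). The 2 members were Gbp8 (1.15, 95% interval 0.02 to 2.28) and Gbp11 (1.16, 0.14 to 2.17), each with an adjusted p of 0.787 in edgeR. Both calls depended on single tumors: without mouse 1 given anti-PD1 FcS 0 members had an unadjusted p under 0.05 (2.57% of genes higher), and the same held without mouse 5 given anti-GARP:TGFb FcD. Without both, the interaction estimates were 0.66 for Gbp8 and 0.71 for Gbp11, and 0.04 for Gbp2.

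Over all 20 tumors whose treatment included anti-PD1 FcS and all 20 whose treatment did not, estimates were 0.41 (Gbp9) to 0.73 (Gbp4). All 10 members had an unadjusted p under 0.05 (13.3% of genes higher), and 0 passed after adjustment in edgeR (adjusted p 0.0546 to 0.123, with 0.589% of genes called). This count moved with the fit, as did the share of all genes called: 8 members passed with DESeq2 (5.33% of genes), 10 without mouse 1 given anti-PD1 FcS alone (4.55%) and 9 without mouse 2 given anti-TGFb (15.1%). It was 6 without mouse 2 of the FcD combination (6.87%), 4 without mouse 1 given anti-GARP:TGFb FcD (2.08%), 3 without mouse 3 given anti-PD1 FcS (2.23%) or mice 2 or 4 of the WT combination (4.63% and 4.01%), and 1 without mouse 1 of the WT combination (2.33%). The differences of mean log2 CPM were 0.13 to 0.41 within libraries 41 to 60 and 0.66 to 1.15 within libraries 61 to 80. The difference between the sets was not tested. A test for any difference among the 8 groups called 0 members in edgeR (adjusted p 0.147 to 0.290, with 0.0271% of genes called) and 1 with DESeq2 (7.79% of genes), and 7 members had an unadjusted p under 0.05 in edgeR (24.7% of genes).

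The combinations were compared with each other to see how the format and target of the partner antibody bore on the family. Between the FcD and WT combinations the estimates were -0.09 to 0.30. For Gbp2 the difference was -0.02 (95% interval -0.79 to 0.75) and for Gbp5 0.09 (-0.64 to 0.81). In edgeR and DESeq2 0 members passed (0% of genes in both), and 0 had an unadjusted p under 0.05 in edgeR (1.30% of genes), but the intervals include differences of the size seen against isotype control. Between the anti-TGFb and WT combinations, Gbp2 (-0.00, -0.77 to 0.76) and Gbp3 (0.07, -0.60 to 0.73) had estimates near 0. Gbp7 (-0.60, -1.41 to 0.21), Gbp9 (-0.46, -1.07 to 0.15) and Gbp10 (-0.70, -1.65 to 0.24) had the lowest estimates. In edgeR and DESeq2 0 members passed, and 0 had an unadjusted p under 0.05 in edgeR, where 18.2% of all genes passed after adjustment (21.3% in DESeq2) and 36.6% before it. The share of genes called in this contrast was 0% with only these 2 groups in the model, where Gbp7 and Gbp9 had an unadjusted p under 0.05 (24.5% of genes) and 0 members passed. Against the FcD combination, Gbp7 (-0.51), Gbp9 (-0.38) and Gbp10 (-0.72) were again lowest, with 0 members past an adjusted p of 0.05 (6.46% of genes) or an unadjusted one (31.2% of genes) in edgeR.

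The libraries differed in how long and short transcripts were represented. Gbp7, Gbp9 and Gbp10 have 5614, 5173 and 3873 bases of annotated exon, more than Gbp2 (2516) and Gbp3 (3265) but, for each, fewer than Gbp4 (7494), Gbp5 (6637) and Gbp6 (5954). A length index was computed for each library as the mean centred log2 CPM of the longest 10% of 12314 protein-coding genes, leaving out the members and the gene lists, minus that of the shortest 10%. Across the 40 tumors, the difference between the mean log2 CPM of Gbp7, Gbp9 and Gbp10 and that of Gbp2 and Gbp3 followed this index (Pearson's r = 0.920, Spearman's rho = 0.829, and r = 0.881 without the 2 libraries farthest from the median index). These 5 members were picked for their estimates in the anti-TGFb combination, so this r is a description of that choice and supports nothing. Single members followed the index less closely, with r = 0.580 for Gbp7, 0.508 for Gbp9 and 0.477 for Gbp10. The members with the longest annotated exons had lower values, 0.212 for Gbp4, 0.312 for Gbp5 and 0.246 for Gbp6, so the order of r did not follow the order of length. For Gbp8, Gbp11, Gbp2 and Gbp3 r was 0.214, 0.126, 0.0903 and 0.0678. The points share library, depth and normalization. The anti-TGFb combination had the lowest median index, -0.466 (range -0.816 to 0.207), against medians of 0.0165 to 0.264 in the other groups. With the index as a covariate, chosen after seeing the data, the estimates of the anti-TGFb combination against isotype control became 0.86 for Gbp7, 0.74 for Gbp9 and 0.99 for Gbp10, in place of 0.12, 0.25 and 0.32 (adjusted p 0.287 to 0.310 in edgeR with it). In the pooled comparison of combinations with single mAbs, all 10 members passed with the index in the model, as did 22.3% of genes (10.7% without it). With it, the members at an unadjusted p under 0.05 against isotype control went from 7 to 5 for the WT combination (12.7% of genes higher), from 8 to 7 for the FcD combination (10.6%) and from 2 to 9 for the anti-TGFb combination (7.57%). Between the anti-TGFb and WT combinations the estimates became 0.07 (Gbp8) to 0.57 (Gbp11), with 0% of genes called, and between the anti-TGFb and FcD combinations 0.10 (Gbp10) to 0.40 (Gbp7), also with 0%. The part of RNA quality or library preparation in these differences was not tested.

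**Figure D3:**
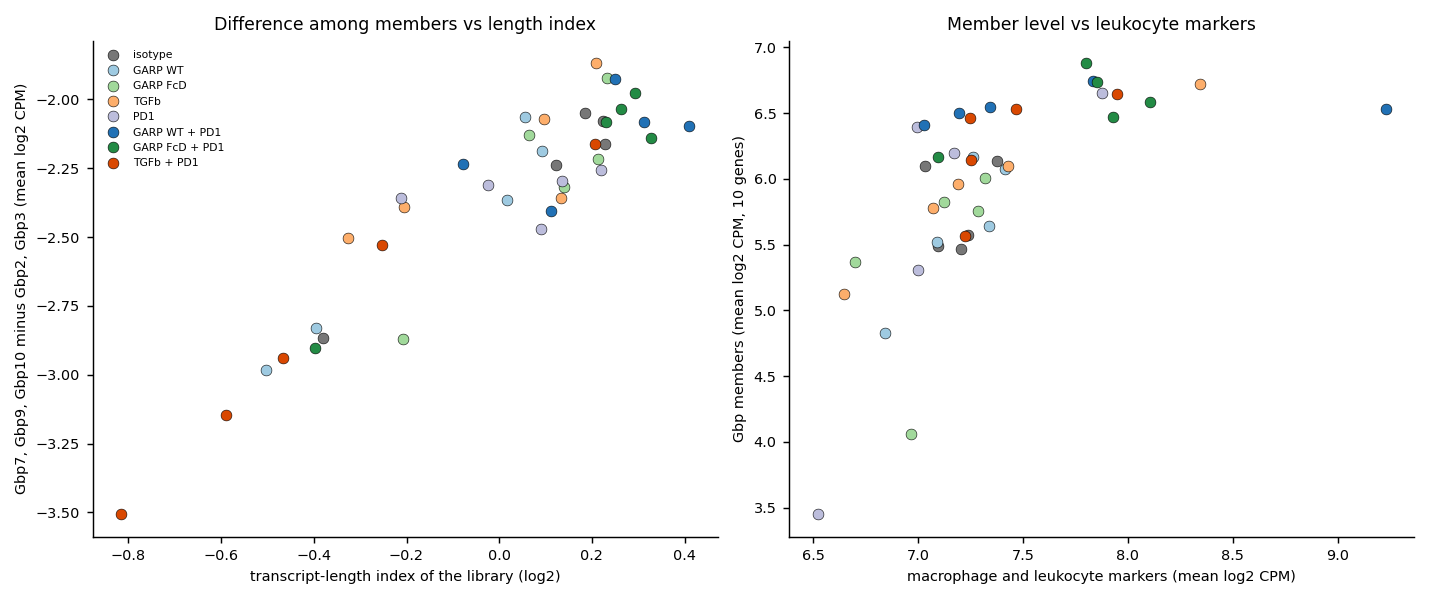
Left, difference between mean log2 CPM of Gbp7, Gbp9 and Gbp10 and of Gbp2 and Gbp3 (y axis) against the transcript-length index (x axis) for the 40 tumors, coloured by group; r was 0.920 and the anti-TGFb combination had the lowest median index (-0.466); these 5 members were picked for their estimates in that combination. Right, mean log2 CPM of the 10 members (y axis) against that of 7 macrophage and leukocyte markers (x axis); r of the members' score with these markers was 0.647.

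The members moved together from tumor to tumor. Over the 45 pairs of members, Pearson's r of log2 CPM across the 40 tumors was 0.775 to 0.988 (median 0.910). It was 0.835 to 0.988 within chromosome 3, 0.775 to 0.983 within chromosome 5 and 0.778 to 0.981 across them, so pairs on different chromosomes were about as alike as pairs on the same one. The closest pair was Gbp2 and Gbp3 (r = 0.988), followed on chromosome 5 by Gbp4 and Gbp6 (0.983), which do not overlap. Gbp9 and Gbp10 (0.980) and the cross-chromosome pair Gbp7 and Gbp9 (0.971) were also close. Gbp11 was the member least like the rest, with r of 0.775 to 0.876 in its 9 pairs, and it had the lowest mean level. All 40 points include both the treatment differences and the mice with very low levels, and no p is given. Mouse 1 given anti-PD1 FcS alone was lowest and mouse 5 given anti-GARP:TGFb FcD was next to lowest for all 10 members. In these 2 tumors, Gbp2 stood at 57.6 and 79.2 CPM against at least 222 CPM in the other 38, and the T and NK cell marker mean was 1.12 and 0.891 (log2 CPM), against 1.46 to 2.34 in the isotype control tumors. That mean was also below the control range in tumors with more Gbp2. It was 0.826, the lowest of the 40, in mouse 3 given anti-PD1 FcS, with 234 CPM of Gbp2, and 1.37 in mouse 5 of that group, with 478 CPM.

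Of 14750 other genes, those most like the mean z-score of the members over the 40 tumors were Iigp1 (r = 0.984), AC102225.2 (0.974), Irgm2 (0.969), Serpina3f (0.968), Gbp2b (0.959), Nlrc5 (0.959), RP24-499A8.3 (0.957), RP23-14F5.7 (0.955), Stat2 (0.955) and Parp9 (0.955). Of these 10 genes, 7 were also among the 10 nearest by Spearman's rho and 8 among the 10 nearest after group means were removed. Gbp2b, the remaining chromosome 3 gene of the family and not a member of the list, stood at 116 ± 32.5 CPM/kb in the controls, and rose by 0.78 on the log2 scale (SE 0.21, adjusted p 0.0215, edgeR) in the combinations against the single mAbs.

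The genes that switch on the family, and those that act with it, were examined in the same pooled comparison of combinations with single mAbs. Of 10 genes of IFNγ signaling, 6 rose and 0 fell. The cytokine gene itself, Ifng, rose the most (log2 fold change 1.25, SE 0.25, adjusted p 0.0103, edgeR), from group means of 0.989 to 1.78 CPM with single mAbs to means of 3.09 to 3.36 CPM with combinations, which are low counts. Ciita, the master regulator of MHC class II genes, rose by 1.12 (SE 0.33), and the transcription factors Irf8 and Irf1 by 0.62 and 0.53. The feedback inhibitor Socs1 rose by 0.49 and Nlrc5, a regulator of MHC class I genes, by 0.45. The receptor and kinase genes did not pass, with estimates of 0.25 for Ifngr1, 0.07 for Ifngr2, 0.23 for Jak1 and 0.12 for Jak2.

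Among the IRG genes, whose products load onto the same vacuoles, 4 of 6 tested rose. These were Igtp (log2 fold change 0.68), Iigp1 (0.64), Irgm1 (0.57) and Irgm2 (0.53), while Tgtp1 (0.57, adjusted p 0.0617, edgeR) and Tgtp2 (0.42, adjusted p 0.175) did not pass. Ifi47 did not pass the filter on low counts and Gm12250 was not analysed here. Of 15 genes typical of type I interferon, 12 rose and 0 fell, led by the antiviral gene Rsad2 (0.85, SE 0.18, adjusted p 0.0119, edgeR), and their median of 0.37 was below the 0.70 of the members. That difference in medians was not tested. Of 10 inflammasome and cell-autonomous defence genes, 7 rose, among them the adaptor gene Pycard (0.71), Nlrp3 (0.56), Il1b (0.47), Il18 (0.45) and Casp1 (0.33). The DNA sensor gene Aim2 stayed at -0.00 (SE 0.06) and the autophagy genes Atg5 (0.16) and Gabarapl2 (-0.05) did not pass.

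Across the 40 tumors, the score of the members correlated with the mean of the IRG genes at r = 0.971, of IFNγ signaling at 0.904, of type I interferon genes at 0.806 and of inflammasome genes at 0.749, as descriptions over points that share library and depth. The lists were chosen with results of these data known.

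Markers of immune cells moved with the members only in part. Of 7 macrophage and leukocyte markers, 5 rose in the combinations (Adgre1 0.86, Ptprc 0.67, Cd68 0.57, C1qa 0.54 and Itgam 0.44 on the log2 scale), and the mean log2 CPM of the list was 6.52 to 8.34 (median 7.15) with single mAbs and 7.03 to 9.23 (median 7.46) with combinations, against 7.03 to 7.38 in the controls. Of 8 T and NK cell markers, the NK cell genes Klrb1c (0.64) and Ncr1 (0.45) rose, while Cd3e (0.49), Cd3g (0.58), Cd4 (0.58), Cd8a (0.32), Cd8b1 (0.60) and Foxp3 (0.63) did not pass. That list ran from 0.826 to 3.58 (median 1.97) with single mAbs, from 1.6 to 4.09 (median 2.35) with combinations and from 1.46 to 2.34 in the controls. Of 4 neutrophil markers, Csf3r (0.93) and Cxcr2 (1.24) rose, with list means of 0.869 to 5.78 with single mAbs, 2.07 to 5.01 with combinations and 0.738 to 3.51 in the controls. The members' score had an r of 0.676 with the T and NK list, 0.647 with the macrophage list and 0.355 with the neutrophil list. Without the 2 tumors lowest in all members these were 0.625, 0.656 and 0.521. Over all 40 tumors, the 5 macrophage and leukocyte markers that rose had r of 0.596 to 0.757 with the score. Csf1r and Mrc1, which did not pass, had 0.497 and -0.0398. Among the neutrophil markers r was 0.676 for Csf3r, 0.338 for Cxcr2, 0.222 for S100a8 and 0.229 for S100a9. No marker of these 3 lists was at 0 counts in any tumor. Their part in the levels of the members was not tested.

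Markers of other tissues that a tumor fragment can hold had low r values over all 40 tumors, and for all but the muscle markers these rose without the 2 tumors lowest in the members. For endothelial markers r was 0.280, and 0.553 without those 2 tumors (0 of 5 passed, list means 2.56 to 5.14 with single mAbs and 2.90 to 5.40 with combinations). For fibroblast markers r was 0.0436, and 0.421 without them (0 of 5 passed, 6.80 to 8.28 and 6.96 to 7.68), and for adipocyte markers 0.236 and 0.491 (0 of 4 passed, -1.55 to 4.72 and -1.58 to 5.11). For skeletal muscle markers r was 0.128 and 0.0993 (-1.31 to 5.02 and -1.64 to 0.60), and 1 of 4 tested, Acta1, fell by 2.37 on the log2 scale, with Myh4 at 0 counts in 32 tumors.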

How the data were processed

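Tumor RNA of 40 mice was sequenced as paired-end, stranded mRNA libraries. Per the submitters' processing notes, the authors aligned reads to GRCm38 with STAR 2.5.3a, handled them with SAMtools 1.6 and counted them per gene with HTSeq 0.9.1. The deposited values are raw counts of 54087 gene entries without normalization; 0 columns were left out. Libraries were grouped by the treatment in their labels. Counts were normalized with TMM, filtered with filterByExpr and fitted in 1 model of the 8 groups with edgeR 4.0.16 (robust quasi-likelihood, R 4.3.3), two-sided, with Benjamini-Hochberg adjustment over 14760 genes in each of 22 contrasts and a test of any group difference. SEs were obtained from each log2 fold change and its F statistic. Log2 CPM used a prior count of 2. P-values rest on the spread between mice within groups, estimated over all 8 groups together and moderated across genes. Depth per tumor was 11931730 to 20680548 counts. The test was also run on simulated counts, and the outcome is not given here. Exon lengths and shared stretches came from GENCODE vM21, promoters from RefSeq.

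The members, gene lists and tests were chosen with earlier results of these data known. One gene of these lists and one promoter motif are not reported here. Named non-members were genes of those lists and the 10 genes most correlated with the members. Alternatives were DESeq2 (1.42.0) size factors and Wald or likelihood ratio test, no filter, only the compared groups, library set as covariate, a prior count of 0.5, and each mouse left out. The length index and the removal of 2 and of 4 tumors were added after seeing the data. Figures used Python 3.11.15 and matplotlib 3.10.9.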

Additional observations from a re-analysis of the deposited data

Results flagged for a closer look

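Single tumors far from the other 4 of their group were looked for with Dixon's ratio (gap to the nearest tumor over the range, critical value 0.71) in 80 combinations of member and group, of which chance alone gives about 5%. Gbp8 in mouse 5 of the WT combination was high at 105 CPM, against 32.9 to 42.9 CPM in the other 4 mice (ratio 0.770). Gbp7 in mouse 5 given anti-GARP:TGFb FcD was low at 50.7 CPM, against 116 to 147 CPM (ratio 0.779), and Gbp11 in the same tumor was low at 1.59 CPM, against 4.43 to 6.30 CPM (ratio 0.738). Mouse 5 of the WT combination also had the highest mean of the 40 tumors for the macrophage and leukocyte markers (9.23 log2 CPM), the T and NK cell markers (4.09) and the endothelial markers (5.40), and the highest score on the first principal component. Whether any of these bears on its Gbp8 level was not tested.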

How the results depend on the processing

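No paired analysis was possible because the labels number the libraries but give no replicate numbers; the numbers of the mice follow the order of accession and pair nothing. In the comparison of the 3 combinations with the 4 single mAbs, 9 members passed (10.7% of genes called), against 1 with no filter on low counts (1.61%), 5 with only the compared groups (6.63%) and 5 (3.43%) without the 4 tumors farthest out on the first principal component (mice 1 and 4 of the FcD combination, mouse 2 given anti-TGFb and mouse 5 of the WT combination). With 1 mouse left out, 4 to 10 passed. For treatments with against without anti-PD1 FcS, 0 passed (0.589% of genes), against 8 with DESeq2's Wald test (5.33%), 3 with the library set as covariate (2.61%), 8 without mouse 1 given anti-PD1 FcS and mouse 5 given anti-GARP:TGFb FcD (1.64%), 4 without the 4 tumors named above (2.48%), 10 with the length index (9.98%) and 0 to 10 with 1 mouse left out. With only the compared groups in the model, 4 members passed for the FcD combination against isotype control (1.30%) and 3 against anti-GARP:TGFb FcD alone (3.49%). For any difference among the groups, 1 passed with DESeq2's likelihood ratio test. The cause of these shifts was not tested.

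The Gbp7 estimate of the anti-TGFb combination against isotype control turned from 0.12 to -0.02 without isotype control mouse 3 and to -0.16 without mouse 1 of the combination, within a range of -0.16 to 0.27 as 1 mouse was left out. Of 971 values of single members under an alternative, in the pooled comparison of combinations with single mAbs and in each combination against isotype control, these 2 changed direction. Over all 22 comparisons, under the other settings and without mouse 1 given anti-PD1 FcS, mouse 5 given anti-GARP:TGFb FcD or mouse 5 of the WT combination, 78 of 2410 values did, in 9 comparisons where 0 members had passed. They include Gbp7, Gbp9 and Gbp10 in the anti-TGFb combination against anti-PD1 FcS without mouse 1 given anti-PD1 FcS, and 8 members in that combination against each of the other two with the length index. In the other comparisons the number of members called was the same under the alternatives run. With all 8 groups in the edgeR model, 0 members passed in the comparisons of single groups that were run.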
